A study of Mus musculus with 2 samples.

Results

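The genes described here encode 9 subunits of the NuRD complex: Mta1, Mta2, Mta3, Mbd2, Mbd3, Gatad2a, Gatad2b, Rbbp4 and Rbbp7. The Chd remodellers, the deacetylases Hdac1 and Hdac2 and the small subunits Cdk2ap1 and Cdk2ap2 are not among them and were counted apart. The 9 genes, of 21779 protein-coding genes in the RefSeq annotation of build GRCm38, were taken by name, with earlier results of these data known. Every Sap130 summit inside them or within 10000 bp of them was counted, which gave 27 of the 14881 summits on nuclear chromosomes. The study mapped Sap130 in the embryonic heart of C57BL/6 mice at E12.5 to find its targets, with 1 library of chromatin pulled down by 2 µg of a Sap130 antibody and 1 library of input DNA taken without antibody. No allele or treatment is named for either library, and whole hearts were used, so the list does not say in which cells of the heart a site was bound. Each peak was given as a summit 1 base long with the authors' score, −log10 of the peak's p or q, which ranks summits within this list and gives no fold over input. There was no replicate and the depth of both libraries is unknown, so values carry no error, no test between genes was made, and the order of 2 genes by score cannot be set against a spread.

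NuRD joins histone deacetylation and nucleosome remodelling in 1 complex. Mta proteins form the scaffold that holds the deacetylases Hdac1 and Hdac2, Rbbp4 and Rbbp7 are WD40 proteins that bind histones, an Mbd protein joins this core to a Gatad2 protein, and Gatad2 in turn holds the Chd remodeller. Mbd2 and Mbd3 do not occur in the same complex, and Mbd2 binds methylated CpG whereas mammalian Mbd3 largely does not. Sap130 belongs to the Sin3 complex, a different corepressor, which shares Hdac1, Hdac2, Rbbp4 and Rbbp7 with NuRD.

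The bases just before the starts of 6 of these genes are printed because the highest summits of the group lie shortly after them, and because they show the letters shared by genes with high and with lower scores. They are from RefSeq, build GRCm38.p6, whose promoter table matched 7 of the 9 genes, all but Mta3 and Mbd2, and lists 2 starts for Gatad2a and for Gatad2b. Each run is read 5′ to 3′ on the strand of the gene and covers up to 250 bases before the start, cut at the border of any protein-coding gene except for the inner start of Gatad2a, which lies inside that gene. Capitals mark matches, on either strand, to the motifs described after the sequences.
Gatad2a, outer start (chr8:69996403-69996634, minus strand): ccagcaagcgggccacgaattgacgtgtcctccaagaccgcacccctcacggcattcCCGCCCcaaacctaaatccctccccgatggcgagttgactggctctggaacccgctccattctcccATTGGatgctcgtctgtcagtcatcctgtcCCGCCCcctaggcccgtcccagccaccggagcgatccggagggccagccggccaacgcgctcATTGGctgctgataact
Gatad2a, inner start (chr8:69974384-69974633, minus strand): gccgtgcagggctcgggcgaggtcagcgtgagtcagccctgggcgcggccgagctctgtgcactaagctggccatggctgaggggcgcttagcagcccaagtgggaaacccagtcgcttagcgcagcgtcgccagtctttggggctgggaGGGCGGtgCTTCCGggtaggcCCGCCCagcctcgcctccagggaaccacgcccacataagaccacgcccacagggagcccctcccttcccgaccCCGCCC
Gatad2b, outer start (chr3:90292931-90293180, plus strand): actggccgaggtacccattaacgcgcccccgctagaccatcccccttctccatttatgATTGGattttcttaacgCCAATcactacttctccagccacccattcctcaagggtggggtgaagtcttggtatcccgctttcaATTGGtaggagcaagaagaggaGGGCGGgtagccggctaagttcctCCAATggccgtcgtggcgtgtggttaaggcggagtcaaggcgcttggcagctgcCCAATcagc
Mbd3 (chr10:80399532-80399781, minus strand): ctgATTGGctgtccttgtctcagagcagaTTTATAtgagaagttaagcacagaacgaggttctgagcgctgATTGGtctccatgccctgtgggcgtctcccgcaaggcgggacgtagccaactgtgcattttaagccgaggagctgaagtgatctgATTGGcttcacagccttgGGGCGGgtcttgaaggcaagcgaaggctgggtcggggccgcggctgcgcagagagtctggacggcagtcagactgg
Rbbp4 (chr4:129335371-129335531, minus strand): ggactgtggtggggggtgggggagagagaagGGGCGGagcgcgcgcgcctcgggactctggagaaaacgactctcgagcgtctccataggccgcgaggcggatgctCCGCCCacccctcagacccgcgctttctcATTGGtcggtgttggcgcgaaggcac
Rbbp7 (chrX:162760122-162760371, plus strand): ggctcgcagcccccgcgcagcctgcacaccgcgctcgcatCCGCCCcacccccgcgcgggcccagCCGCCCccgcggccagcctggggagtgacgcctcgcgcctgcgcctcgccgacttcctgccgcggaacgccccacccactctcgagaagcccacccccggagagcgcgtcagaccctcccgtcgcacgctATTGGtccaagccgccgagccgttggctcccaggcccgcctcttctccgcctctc
Mta2 (chr19:8941670-8941919, plus strand): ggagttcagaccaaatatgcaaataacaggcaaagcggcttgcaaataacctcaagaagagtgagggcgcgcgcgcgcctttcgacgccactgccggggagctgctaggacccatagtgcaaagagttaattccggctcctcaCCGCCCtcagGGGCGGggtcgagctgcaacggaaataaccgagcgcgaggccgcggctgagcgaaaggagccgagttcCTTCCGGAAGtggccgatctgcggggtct

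All 9 windows of the 7 genes, here taken from 250 bases before to 50 after the start, held a GC box (GGGCGG or its reverse complement CCGCCC), the site of Sp and Klf factors. So did 46.2% of the 21263 promoters of protein-coding genes in the table, and 71.4% of the 10715 of them with a Sap130 summit within 1000 bp of the start. A CCAAT box (CCAAT or ATTGG), the site of NF-Y, was in 6 windows of 5 genes, against 38.2% and 37.5% of promoters. Mbd3 held 3 before its start, at 247, 179 and 94 bases, all in the reverse direction, and the outer start of Gatad2b held 5.

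Each other motif was in 0 to 2 of the 9 windows. For these, the first share given is that of all promoters and the second that of promoters with a summit. The ETS core (CGGAAG or CTTCCG, in 21.1% and 34.2%) was in the windows of Mta2 and of the inner start of Gatad2a, and the Mta2 window held it on both strands in overlapping matches. Rbbp4 alone held an E-box (CACGTG, in 7.84% and 10.9%), the site of Myc and Max, and a part of the NRF1 site (CATGCGC or GCGCATG, in 4.80% and 7.99%). These lie 224 and 249 bases before its start, inside the neighbouring gene Zbtb8os, and so are not in the printed run. Mbd3 alone held a TATA box sequence (TATAAA or TTTATA, in 12.6% and 5.37%), in reverse at 221 bases before the start, far from where such a box acts. No window held ATGGCGG, a part of the YY1 site (in 5.25% and 9.12%), or TGACGTC, most of a CRE (in 3.84% and 6.06%), on either strand. With shares this low, 9 windows are too few to read anything from a count of 0. A match is a run of letters and does not show that a factor binds there.

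The windows were rich in CpG. Their GC content ran from 54.3% at the inner start of Gatad2b to 81.0% at Mta1, with a median of 64.0%, and the ratio of observed to expected CpG had a median of 0.834. Promoters with a summit within 1000 bp had medians of 63.0% and 0.810, and all 21263 had 56.3% and 0.567. The windows of the NuRD genes were thus near those of other genes with a summit.

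Sap130 summits were found at all 9 genes. Each had at least 1 inside or within 10000 bp, as had 60.1% of all protein-coding genes, and at least 1 within 1000 bp of a boundary, that is the first or last base of the gene, as had 48.4%. The number in reach ran from 1 at Mta3 and Mbd2 to 6 at Mbd3, and 7 of the 9 genes had 2 or more (background 28.6%). The median over all protein-coding genes was 1 summit in reach. Mta2 was among the 7 genes only through summits at its neighbour Tut1. The members were 6993 to 117553 bp long, against a median of 17217 bp over all protein-coding genes, and the part of gene length in these counts was not tested.

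Of the 27 summits, 17 lay within 1000 bp of a boundary or start of the NuRD gene itself, and 4 of these were also within 1000 bp of a neighbouring protein-coding gene. Another 9 lay at or in a neighbour only, and 1 lay elsewhere in Mbd3. The wide reach therefore collects summits of other genes as well, and they had scores of 5.26 to 104, in the range of those at the NuRD genes. The farthest summit in reach was 7131 bp outside Mbd3, and the first beyond the limit was 12062 bp outside Mta2.

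**Figure D1:**
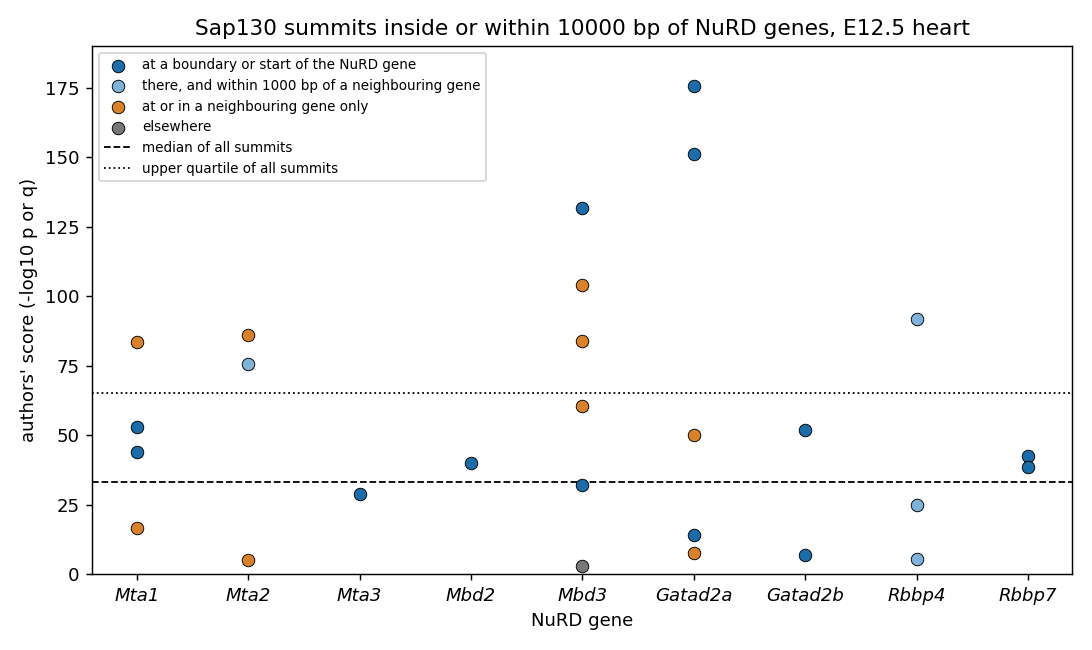
Score of each of the 27 Sap130 summits inside or within 10000 bp of the 9 NuRD genes (vertical axis, −log10 of the peak's p or q), coloured by whether it lies at the NuRD gene or at a neighbour. The dashed and dotted lines are the median (33.3) and upper quartile (65.2) of all summits; Gatad2a holds the 2 highest points, 176 and 151, and the highest points of Mta1 and Mta2 belong to neighbours.

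Of the scaffold genes, Mta1 (chromosome 12, 113098248 to 113137206) had 2 summits of its own, on either side of its start at 113098278. The summit at 113098035, 243 bp upstream, had a score of 43.8, and the one at 113098819, 541 bp downstream, had 53.1. Without a replicate, the difference between these 2 scores cannot be set against a spread. A higher score of 83.6 in reach, at 113140282, lay 3076 bp beyond the end of Mta1 and 46 bp downstream of a start of Crip2, which encodes a LIM domain protein, and another of 16.7 lay inside Crip2.

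Mta2 (chromosome 19, 8941920 to 8952300) had 1 summit of its own, at 8942209, 289 bp downstream of its start, with a score of 75.6. This summit is also 627 bp beyond the last base of Eml3, which runs in the same direction and whose nearest listed start is 12515 bp from the summit. The highest score in reach, 86.0, was 150 bp downstream of the start of Tut1, the gene of a terminal uridylyltransferase, with a further summit of 5.26 at 257 bp upstream of that start. For Mta1 and Mta2, then, the top score by the reach of 10000 bp is the neighbour's.

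Mta3 (chromosome 17, 83706163 to 83823715), the longest of the 9 genes at 117553 bp, had a single summit at 83705992, 171 bp outside its left end. Its score of 28.7 was the lowest top score of the group and the only one below the list's median of 33.3. It ranked 8124th of 14886 summits. Of the scaffold genes, Mta2 was thus highest and Mta3 lowest, with Mta1 between them.

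The methyl-CpG binding domain genes Mbd2 and Mbd3 differed more. Mbd2 (chromosome 18, 70568225 to 70629134) had 1 summit, at 70568534, 309 bp inside its left end, with a score of 39.9. Mbd3 (chromosome 10, 80392539 to 80399531), the shortest gene at 6993 bp, had a summit of 132 at 80399244, 287 bp downstream of its start, ranking 526th in the list. A weaker summit of 32.2 lay 435 bp upstream of the start, and one of 2.92, ranking 14849th, lay 1406 bp downstream.

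Mbd3 also lies among other targets. Summits of 84.0 and 104 lay 277 bp inside and 300 bp outside the right end of Mex3d, the gene of an RNA-binding protein, and one of 60.5 lay 159 bp downstream of the start of Uqcr11, of respiratory complex III. These are 4588 to 7131 bp outside Mbd3. The top score in reach of Mbd3 was nevertheless its own.

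Of the genes that bridge to the remodeller, Gatad2a (chromosome 8, 69907069 to 69996402) had the highest scores of the group, at both of its starts. The summit at 69996109, 275 bp downstream of the outer start, had 151 and ranked 299th. The summit at 69974116 had 176 and ranked 143rd, with 99.0% of all summits below it. It lay 22286 bp inside the gene but 267 bp downstream of the inner start, so a count at gene ends alone misses it. A weak summit of 14.1 lay 442 bp upstream of the outer start, opposite the strong one.

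Separate summits at 2 distant starts of 1 gene were not common in the list. Of 1287 genes whose outermost starts lie more than 2000 bp apart, 159 (12.4%) had a summit within 1000 bp of both. Gatad2a was the only NuRD gene with starts that far apart in the table. Its neighbours Ndufa13, of respiratory complex I, and Tssk6, a testis kinase, shared a summit of 50.1, which lay 531 bp downstream of the start of Ndufa13 and 695 bp upstream of that of Tssk6. A summit of 7.53 lay 75 bp beyond the end of Tssk6.

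Gatad2b (chromosome 3, 90293181 to 90363405) had 2 summits. The stronger, 51.8 at 90293855, lay between its 2 listed starts, 674 bp downstream of the outer and 231 bp upstream of the inner start. The weaker, 6.91, lay 630 bp upstream of the outer start. No neighbour was in reach. The score of Gatad2b was thus well under both of those of its paralogue.

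The histone-binding genes Rbbp4 and Rbbp7 are shared with the Sin3 complex. Rbbp4 (chromosome 4, 129307100 to 129335370) had 3 summits, of 91.9 at 344 bp downstream of its start, 24.8 at 420 bp upstream and 5.35 at 850 bp upstream. Zbtb8os begins 162 bp from Rbbp4 and runs the other way. The first summit is 506 bp outside Zbtb8os and the other summits are 258 and 688 bp inside it, so the strongest lies on the Rbbp4 side, but all are within 1000 bp of both genes.

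Rbbp7 (chromosome X, 162760372 to 162779090) had 2 summits of near-equal score, 42.4 at 222 bp and 38.5 at 881 bp, both downstream of its start. Scores on the X chromosome were lower than elsewhere: the median was 15.8 over 420 summits, against 34.2 over 14461 on autosomes. Among X summits those of Rbbp7 ranked 36th and 52nd, whereas in the whole list they ranked 6210th and 6726th. The part of the chromosome in the difference between Rbbp4 and Rbbp7 was not tested, and the sex of the embryos is not given in the sources used here.

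**Figure D2:**
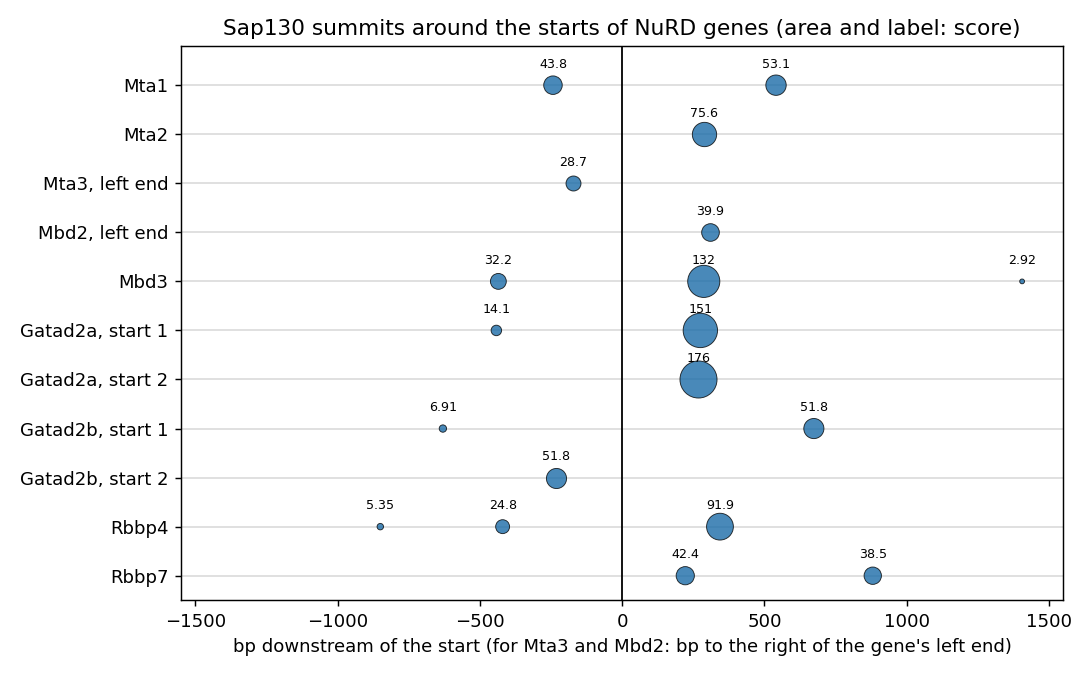
Position of Sap130 summits within 1500 bp of each listed start (horizontal axis, bp downstream), 1 line per start, with area and label giving the score; Mta3 and Mbd2, with no listed start, are shown from their left end. The highest summit of Mbd3, Rbbp4, Mta2 and of both Gatad2a starts sits between 267 and 344 bp downstream, and the weaker summits mostly sit upstream.

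Top summits lay downstream of the start in most of these genes. Of the 5 genes with 1 listed start (Mta1, Mta2, Mbd3, Rbbp4 and Rbbp7), all had it downstream, at 222 to 541 bp, as had 84.7% of 7207 such genes with a summit within 1000 bp. The median position over those genes was 185 bp downstream, with quartiles of 119 and 248 bp. Rbbp7 was within these quartiles, and the other 4 lay farther into the gene. These distances depend on which start the table lists.

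Summits on both sides of a start were frequent in the group. Mta1, Mbd3, Gatad2a, Gatad2b and Rbbp4, 5 of the 7 genes with a listed start, had a summit within 1000 bp on each side, as had 8.48% of 17492 genes with a listed start and 16.2% of those with any summit there. At Rbbp4 the upstream summits of 24.8 and 5.35 lie 178 and 252 bp from a start of Zbtb8os, nearer than to that of Rbbp4. By gene boundaries, 6 of 9 genes had 2 or more summits within 1000 bp, against 9.53% of all protein-coding genes. The summits nearest to each other across the start were 717 to 784 bp apart at Gatad2a, Mbd3, Rbbp4 and Mta1, and 1304 bp at Gatad2b. The downstream one had the higher score at all 5 genes, as at 70.5% of 1643 such starts in the list. Gatad2b is counted here from its outer start, and its summit of 51.8 lies 231 bp upstream of the inner one. Since members were chosen with these results known, this describes the 9 genes and was not tested.

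Top scores at the NuRD genes were spread over the range of other targets. By the highest score within 1000 bp of a boundary, the order was Gatad2a (151), Mbd3 (132), Rbbp4 (91.9), Mta2 (75.6), Mta1 (53.1), Gatad2b (51.8), Rbbp7 (42.4), Mbd2 (39.9) and Mta3 (28.7). Their median of 53.1 was close to the 49.3 over all 10532 genes with such a summit, whose quartiles were 23.7 and 79.4. Gatad2a, Mbd3 and Rbbp4 were above that upper quartile, and no member was below the lower one.

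Counted by score, 8 of 9 members had a summit at or above the list's median of 33.3 within 1000 bp of a boundary (background 31.7%), all but Mta3. At or above the upper quartile of 65.2, 4 had one (background 17.3%): Gatad2a, Mbd3, Rbbp4 and Mta2. By the reach of 10000 bp the counts were 8 (background 41.9%) and 5 (background 24.3%), the fifth being Mta1 through the summit at Crip2. Near boundaries, each family of paralogues thus held a member above 65.2 and at least 1 below it. This depends on the cut, since no Mta gene was above 79.4, the upper quartile over genes.

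**Figure D3:**
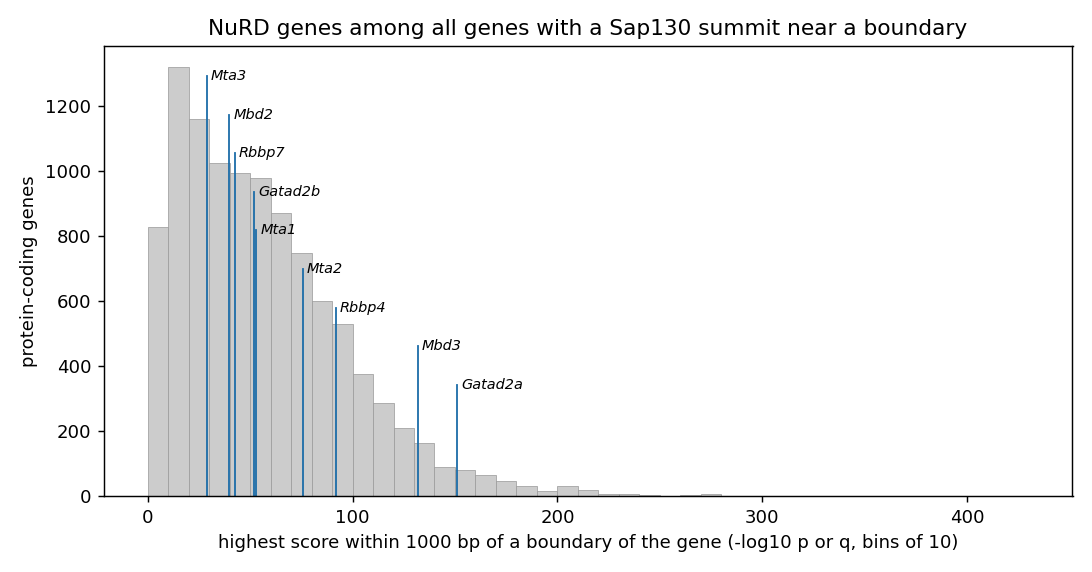
Number of protein-coding genes (vertical axis) by highest Sap130 score within 1000 bp of a boundary (horizontal axis, bins of 10), for the 10532 genes with such a summit, with the 9 NuRD genes marked by lines whose heights only separate the names. Mta3 at 28.7 lies lowest and Gatad2a at 151 highest, and 6 of the 9 lie between the quartiles of 23.7 and 79.4.

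The other parts of NuRD and its relatives were counted by the same measure. Over all protein-coding genes, 48.4% had a summit near a boundary, 31.7% one at or above 33.3 and 17.3% one at or above 65.2. In reach, 24.3% had one at or above 65.2. Of 7 enzymes and accessory subunits all had a summit within 1000 bp of a boundary, with top scores there of 15.4 to 98.6 and a median of 55.6. The highest were Chd4 (98.6), the main NuRD remodeller, the small subunit genes Cdk2ap1 (62.8) and Cdk2ap2 (60.9), and Chd3 (55.6). The deacetylase genes Hdac1 and Hdac2, named after their values were seen because both complexes share them, had 38.8 and 40.3. At or above 65.2 there was 1 of these 7 genes near a boundary, against 4 of the 9 members, and by the reach of 10000 bp there were 3 of 7 against 5 of 9. In that reach Chd4 had a score of 179, just above the 176 of Gatad2a, from a summit 1435 bp outside Chd4 and within 1000 bp of Nop2.

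Of 12 factors that bind NuRD or bring it to genes, 9 had a summit near a boundary, with a median score of 23.0. The highest were the demethylase gene Kdm1a (83.2), Zfpm1 (43.0), a GATA cofactor, Pwwp2b (35.5) and Zfpm2 (31.1), which encodes another GATA cofactor needed in heart development. Bcl11b had none within 1000 bp, its nearest lying 1073 bp inside with a score of 59.6, and Zmynd8 had none in reach. Pwwp2a, named after its value was seen, had none near a boundary either, but its summit 1171 bp inside had 86.3, above that of Kdm1a. By the reach of 10000 bp the median was 35.5 over 11 genes.

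Among 11 other genes with a methyl-CpG binding domain or related to these, 8 had a summit near a boundary, with a median of 39.2. The highest were Baz2b (71.9), Mbd5 (68.8), Mbd1 (49.8) and Mbd4 (40.3), the last of a DNA glycosylase. All but that of Mbd1 were also within 1000 bp of a neighbour: Marchf7 at Baz2b, Orc4 at Mbd5 and Ift122 at Mbd4. The summits of Mbd5 and Mbd4 lay outside these genes, by 473 and 328 bp. Mbd3 at 132 stood above all of them and Mbd2 at 39.9 near their median. Mbd3l1 and Mbd3l2, relatives of Mbd3, had none in reach, the nearest lying 185866 and 138122 bp away.

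Core Sin3 genes, here without the subunits shared with NuRD, had a higher median score than the NuRD genes. Of 18, 15 had a summit near a boundary, all 15 at or above 33.3 and 12 at or above 65.2. The median there was 102, against 53.1 for the NuRD genes, but the ranges overlapped, at 43.9 to 148 and 28.7 to 151. By the reach of 10000 bp the medians were 102 and 83.6, the latter being the score of the summit at Crip2. In that reach 17 of the 18 core Sin3 genes had a summit, 14 of them at or above 65.2. Sin3a had none near a boundary, its nearest lying 1312 bp inside with a score of 55.8, but its highest in reach had 128. Sap25 had none in reach. Of 14 genes of the NCoR and CoREST complexes, 12 had a summit near a boundary, 11 at or above 33.3 and 6 at or above 65.2. Their median was 61.5, and among them were Ncor1 (98.1, also within 1000 bp of Pigl), Gps2 (97.9) and Rcor1 (88.6). These are counts in 1 library, with no test between the lists.

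**Figure D4:**
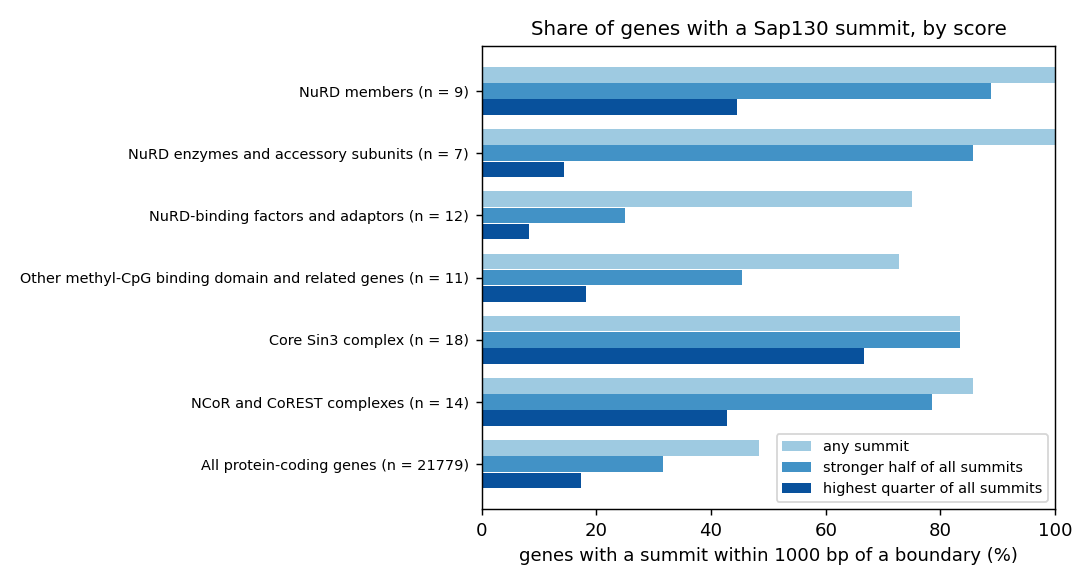
Share of genes with a Sap130 summit within 1000 bp of a boundary (horizontal axis, percent) for the NuRD genes, 5 related lists and all protein-coding genes, counting any summit, those at or above the median score and those at or above the upper quartile. All 9 NuRD genes have a summit and 4 have one in the highest class, against 12 of 18 core Sin3 genes and 17.3% of all genes.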

How the data were processed

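Sap130 ChIP-seq was done on E12.5 mouse heart, with 1 ChIP and 1 input library. Per the submitters' processing notes, Bowtie 1.1.2, MACS2 2.1.0.20140616 and build GRCm38 (mm10) were used; the options set, any duplicate removal and the threshold were not given in these sources. The authors deposited 14886 summits, each with a score, −log10 of the peak's p or q; which was used could not be settled. This score grows with depth as well as enrichment, and read counts were not used here. The 5 mitochondrial summits were left out.

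Genes came from RefSeq GRCm38.p6 (49997 genes). Genes of the mitochondrial genome, on no named chromosome, or starting in the first 3000000 bp of a chromosome other than Y were left out, leaving 21779 protein-coding genes. The gene table holds no strand or exons; strand and starts came from the promoter table, which covers 17492 of these genes. Distances were counted from the summit to gene boundaries or starts, with 10000 bp as reach and 1000 bp as near. Backgrounds are the same counts over all genes.

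The 9 members and all comparison lists were chosen with earlier results of these data known. Named were all members, neighbours sharing a summit, and of each list up to 4 members of highest score and 2 without a summit; not every name the rule takes is given. Counting was tested on simulated data: 200 of 200 genes were counted as placed. Alternatives were reach, score, merging of summits within 500 bp, and leaving out summits of other genes. Computation was in Python 3.11.15 (pandas 2.3.3, numpy 2.4.6), with figures from matplotlib 3.10.9.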

Additional observations from a re-analysis of the deposited data

How the results depend on the processing

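The count of genes with a summit in reach stayed between 7 and 9 under all settings tried except the highest-scoring summits, at or above 65.2, where 5 had one in reach and 4 near a boundary. Mta3 has no summit inside it, and Gatad2b none within 500 bp of a boundary. Without summits at or in another protein-coding gene, Mta2 and Rbbp4 lost theirs. The number of summits moved more, from 27 to 11 inside the genes only, 17 at or above the median score, 9 at or above 65.2 and 14 without those at or in other genes. The median top score in reach, 83.6, was 64.3 inside the genes only, 53.1 with a reach of 1000 bp, 86.0 with 25000 bp, 84.8 and 91.9 with the summits at or above the median and upper quartile, and 51.8 without summits at or in other genes. Keeping only the 17 summits near a member's own boundary or start, a setting chosen after seeing the data, also gave 53.1. The value of 83.6 is itself the score of the summit at Crip2, in reach of Mta1. No paired analysis was possible because there is 1 ChIP library. Unknown depth limits what a missing summit shows.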

Other observations

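Beyond the reach of 10000 bp, another 10 summits lay within 30000 bp of a NuRD gene, and all 10 were at or in other protein-coding genes. The highest were 91.9 at Tedc1, 19307 bp from Mta1, 74.6 at B3gat3, 21238 bp from Mta2, and 71.0 at Dennd4b, 27775 bp from Gatad2b. None lay in that range around Mta3, Mbd2, Mbd3 or Rbbp7. Mbd2 and Mta3, the members of lowest score in their families, were also those with a single summit in reach. Mta2, however, also had only 1 summit of its own, of 75.6, and its other 2 in reach lay at Tut1. Mbd2 had no protein-coding neighbour within 10000 bp.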
